A study of Rattus norvegicus with 11 samples.

Results

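Notch signalling passes between touching cells, and its 10 core genes measured here encode the 4 receptors (Notch1 to Notch4), 5 canonical ligands (Dll1, Dll3, Dll4, Jag1 and Jag2) and the DNA-binding protein Rbpj. They were selected by gene symbol, from probe sets that the platform annotation assigns to a single gene, and are 10 of 16572 genes tested on the arrays. Of their 11 probe sets, all 11 passed the filter on low values. Notch3 has 2 probe sets, and the one with the higher mean was used. RNA of the left dentate gyrus, hilus included, came from 6 rats that had TBI and from 5 controls that had a sham operation, and each animal's RNA was read on its own Rat Gene 1.1 ST array (Affymetrix). All were male Sprague-Dawley rats. The TBI rats received lateral fluid-percussion injury, a pulse of fluid pressure on the exposed dura over the left parietal cortex, and were killed 90 days later. The samples of the sham-operated controls are labelled 90 days as well. Both groups were anaesthetised and had a craniectomy, and only the TBI rats received the pressure pulse. The tissue was cut out with a scalpel and holds neurons, glia and vessels together. A lower signal can therefore come from fewer cells of a type or from less RNA per cell, and these cannot be told apart.

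A Notch receptor on one cell binds a Delta-like or Jagged ligand on its neighbour. The bound receptor is cut first by an ADAM protease and then by the gamma-secretase complex, and the released intracellular domain enters the nucleus, where it joins Rbpj and a Mastermind coactivator to switch on genes of the Hes and Hey families. In the adult dentate gyrus the pathway is known for keeping neural stem cells in the subgranular zone, and it also acts in astrocytes and blood vessels. The study asked whether genes under the control of microRNAs remain changed long after TBI, and followed Notch1 as a target of miR-139-5p. The sequence of that microRNA in RefSeq, at chr1:165290865-165290886 on the plus strand of GRCr8, is shown because the study tied Notch1 to it, and capitals mark its seed (bases 2 to 8), the part that pairs with a target. The levels of the microRNA are not analysed here.
rno-miR-139-5p: uCUACAGUgcacgugucuccag

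Promoter sequences in RefSeq (GRCr8, 300 bases around the gene start) were found for 9 of the 10 genes, as 11 promoters, since Jag2 and Rbpj each have a pair of starts; Dll4 is the gene without one. They were searched on both strands for the RBPJ motif GTGGGAA and for its core TGGGAA, which is contained in the motif. The core occurred in 5 of these 11 promoters and in 25.7% of all 33469 promoters of that length, and the motif in 1 of 11 and in 6.29% of all. The promoters of Rbpj overlap and share 1 of their matches, so the 11 are not separate sequences, and by gene the core was found in 4 of 9. The promoters of Notch1 and Dll1 are printed because Notch1 is the gene with the lowest p among the 10 and Dll1 the one whose promoter holds the motif. The Notch1 promoter (chr3:29721564-29721863, minus strand) has 0 matches to the core. The Dll1 promoter (chr1:64993225-64993524, minus strand) has 2, in capitals, and the first of them is the reverse complement of the motif. A match is only a run of letters, and its use was not measured.
Notch1 promoter: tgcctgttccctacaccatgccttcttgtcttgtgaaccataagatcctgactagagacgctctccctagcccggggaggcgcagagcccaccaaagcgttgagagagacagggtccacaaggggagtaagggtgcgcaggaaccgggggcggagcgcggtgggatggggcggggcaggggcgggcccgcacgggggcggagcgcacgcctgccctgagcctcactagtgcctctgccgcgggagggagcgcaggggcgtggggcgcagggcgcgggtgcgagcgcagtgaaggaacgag
Dll1 promoter: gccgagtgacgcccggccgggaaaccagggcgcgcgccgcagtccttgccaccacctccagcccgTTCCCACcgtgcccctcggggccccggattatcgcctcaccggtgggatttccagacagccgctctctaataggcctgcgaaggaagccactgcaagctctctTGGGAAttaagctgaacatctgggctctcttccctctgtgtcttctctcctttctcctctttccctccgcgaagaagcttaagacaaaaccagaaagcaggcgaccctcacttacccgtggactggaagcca

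Signals are on the log2 scale as the authors normalized them, with array medians of 5.26 to 5.35. Prox1, the transcription factor that marks dentate granule cells, had a mean log2 value of 9.31 after TBI and 9.27 in controls, and limma gave none of the 6 granule cell markers an unadjusted p under 0.05. The lowest p of that list was that of C1ql2, a secreted synaptic protein of granule cells, which averaged 9.36 after TBI and 9.55 in controls (log2 fold change -0.19, unadjusted p = 0.055 from limma). Tdo2, another of these markers, was low in both groups, at 3.35 after TBI and 3.30 in controls. TBI rats 1 and 3 and control rat 2 stood apart from the other 8 rats on the first component of the variation within groups, which held 63.9% of that variation. Their scores were 0.49, 0.42 and 0.45, and those of the others lay between -0.34 and 0.06. All 6 markers of inhibitory interneurons had negative log2 fold changes (median -0.34), 3 with an unadjusted p under 0.05, and their mean log2 signal lay between 7.30 and 7.70 in TBI rats and between 7.76 and 7.93 in controls. Pvalb fell after adjustment (log2 fold change -0.60, adjusted p = 0.0057 from limma), and Sst differed by -0.58 on the log2 scale with an adjusted p of 0.059 in limma. Of 7 microglia markers 5 were positive (median 0.19), with Cd68 at 0.58 and Aif1 at -0.15 past an unadjusted p of 0.05 in limma, and their mean log2 signal lay between 6.15 and 6.50 in TBI rats and between 5.89 and 6.42 in controls. The part of these cell types in the Notch results was not tested. Over the whole array, 27 of 17905 probe sets (0.151%) passed at an adjusted p under 0.05, and an unadjusted p under 0.05 was reached by 6.82%, of which 888 were higher probe sets (4.96% of all) and 334 lower ones (1.87% of all). With each array centred on its median these numbers were 511 higher and 722 lower.

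Notch1 was the one gene of the 10 with a higher signal after TBI at an unadjusted p under 0.05 in limma, and none was lower. At that p in limma, 4.96% of all probe sets were higher and 1.87% lower. After adjustment over all probe sets, 0 of the 10 genes passed in limma, where 0.151% of all probe sets did, and 0 with the methods' one-way analysis of variance. Of the 10, 6 had positive and 4 negative log2 fold changes, where 57.2% of all probe sets were positive. The median of the 10 was 0.050 and that of all probe sets was 0.011 on the log2 scale. In 0 of the 10 were the TBI and control values free of overlap, which was the case for 1.04% of all probe sets. The plot of every gene in every rat shows how the groups lie.

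**Figure D1:**
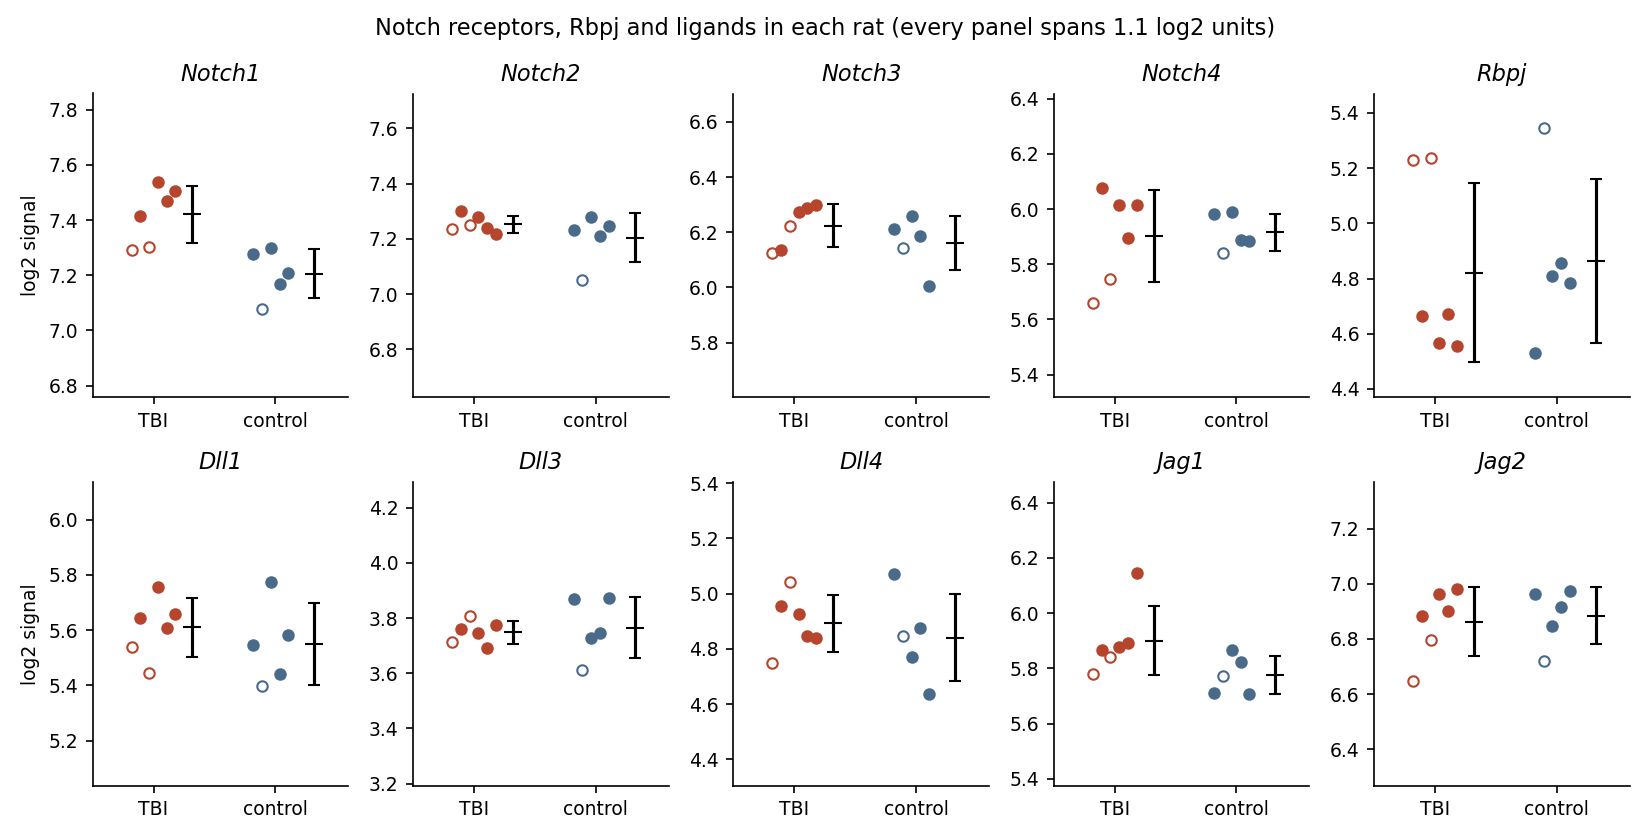
Log2 signal of the 4 Notch receptors, Rbpj and the 5 ligands in each rat (y axes, all of the same span), with the 6 TBI rats left of the 5 controls in every panel. Points are rats, open points are TBI rats 1 and 3 and control rat 2, and bars give the mean and SD. In Notch1 5 TBI rats lie above all controls, TBI rat 3 only just. In Rbpj the 3 open points lie between 5.23 and 5.34, above all filled points.

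Notch1, the receptor best known for stem cell maintenance in the dentate gyrus, ranged over 7.29, 7.44 and 7.54 (lowest, median and highest log2 signal) in the 6 TBI rats, against 7.28, 7.08, 7.30, 7.17 and 7.21 in controls 1 to 5. The overlap came from TBI rat 1, at 7.29, which lay just below control rat 3. TBI rat 3, at 7.301, was nearly tied with control rat 3, at 7.2995. Between the groups Notch1 differed by a log2 fold change of 0.21 (95% interval 0.088 to 0.34, limma), a 1.16-fold difference with an interval of 1.06 to 1.27. Its unadjusted p of 0.0031 ranked 182 among the 17905 probe sets, and its adjusted p was 0.30 in limma. The spread of Notch1 within groups was ordinary for the array, with a residual SD of 0.098 on the log2 scale, where the median probe set had 0.10. TBI rats 1 and 3 had the lowest Notch1 signals of the TBI group and control rat 2 the lowest of the controls. Without these 3 rats the log2 fold change was 0.245 with an adjusted p of 0.035 in limma. The 3 rats were set apart by variation within groups on the same arrays, Notch1 included, so leaving them out lowers the residual spread by construction, and neither this p nor the paralog differences without them are independent support. In that fit 271 probe sets (1.51%) were called, against 0.151% with all rats. In a fit that gave each array a weight, Notch1 had an adjusted p of 0.026 from limma, among 310 calls (1.73%). In that fit TBI rats 1 and 3 and control rat 2 had the weights 0.34, 0.35 and 0.44, the lowest of the 11. The weights were estimated from variation within groups on the same arrays, so this p is not independent support either. The fit without the 3 rats and the weighted fit were 2 of the 22 alternatives, and in the other 20 Notch1 did not pass. With any single rat left out its log2 fold change stayed between 0.18 and 0.24.

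Of 8 astrocyte markers tested, 5 had positive log2 fold changes, and 3 of them reached an unadjusted p under 0.05. Gfap, the intermediate filament of astrocytes, was the one that rose after adjustment (log2 fold change 0.83, adjusted p = 1.4e-05 from limma). The mean log2 signal over the 8 lay between 9.62 and 9.72 in TBI rats and between 9.40 and 9.66 in controls, and the lowest marker of the list averaged 7.20. The part of astrocytes in the Notch1 result was not tested. Among 16571 other genes, the 5 whose signal followed that of Notch1 most closely over the 11 rats were S100a16, a calcium-binding protein (Pearson's r = 0.98), Apoe, the main lipid carrier of the brain (0.97), Lig1, a DNA ligase (0.97), Ddn, a protein of dendrites (0.97), and Sdc4, a heparan sulfate proteoglycan (0.97). They were chosen as the highest values, so no test was made. With the group means removed, r was between 0.92 and 0.96, so these genes also followed Notch1 among rats of a group, where the 3 rats that stood apart share a low Notch1 signal. All 5 had positive log2 fold changes, of 0.13 to 0.27. Among 6 markers of neural stem cells and neuroblasts, Hopx, which marks quiescent stem cells and astrocytes, had the lowest p (log2 fold change 0.27, adjusted p = 0.14 from limma). Of the 6, 4 were positive and 2 negative, Dcx at -0.072 and Sox11 at -0.10, with a median of 0.017. The mean log2 signal over the 6 lay between 5.64 and 5.82 in TBI rats and between 5.65 and 5.78 in controls.

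The other receptors showed smaller differences. Notch2, a close relative of Notch1 that is also present on stem cells and glia, ranged over 7.22, 7.24 and 7.30 (lowest, median and highest) in TBI rats, against 7.23, 7.05, 7.28, 7.21 and 7.25 in controls 1 to 5. The low control was control rat 2, and the SD of the TBI rats was only 0.031. For Notch2 the log2 fold change was 0.048 (95% interval -0.045 to 0.14, unadjusted p = 0.28 from limma), and 0.016 without the 3 rats that stood apart. Notch3, the receptor of vascular smooth muscle and pericytes, ranged over 6.12, 6.25 and 6.30 in TBI rats, against 6.21, 6.14, 6.26, 6.19 and 6.00 in controls 1 to 5. TBI rats 4, 5 and 6 lay above every control, and the other TBI rats lay among them. For Notch3 the log2 fold change was 0.062 (95% interval -0.053 to 0.18, unadjusted p = 0.26 from limma), and its second probe set gave 0.051. Of 8 pericyte and smooth muscle markers, all 8 had positive log2 fold changes, 3 of them with an unadjusted p under 0.05 in limma. The lowest p among these markers was that of Abcc9 (log2 fold change 0.14, unadjusted p = 0.0096 from limma). Their mean log2 signal lay between 6.29 and 6.47 in TBI rats and between 6.17 and 6.37 in controls, and the lowest marker averaged 5.00. Their part in the values of Notch3 was not tested.

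Notch4, the receptor of endothelial cells, had the lowest fold change of the 4 receptors. It ranged over 5.66, 5.96 and 6.08 in TBI rats, against 5.98, 5.84, 5.99, 5.89 and 5.88 in controls 1 to 5. The TBI rats lay on both sides, with 3 above every control and 2, TBI rats 1 and 3, below every control. The log2 fold change of Notch4 was -0.015 (95% interval -0.18 to 0.15, unadjusted p = 0.84 from limma), and it was 0.064 without the 3 rats that stood apart. Of 7 endothelial markers, all 7 had positive log2 fold changes, and Cdh5 and Cldn5 had an unadjusted p under 0.05 in limma. The mean log2 signal over those 7 lay between 6.17 and 6.28 in TBI rats and between 6.05 and 6.26 in controls, the lowest marker averaged 5.16, and their part in the values of Notch4 and Dll4 was not tested.

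**Figure D2:**
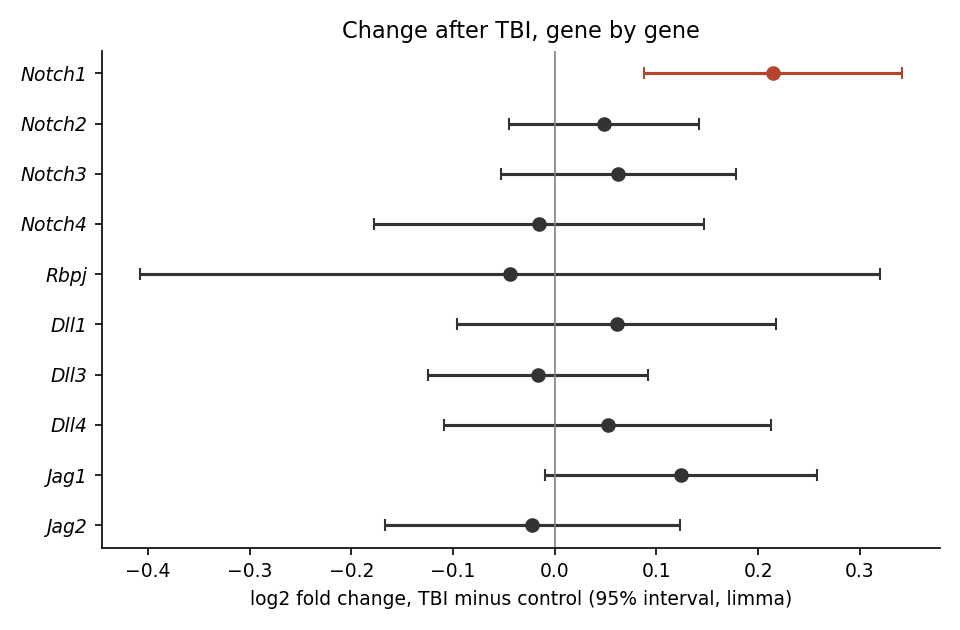
Log2 fold change of each gene, TBI minus control (x axis), with its 95% interval from limma, receptors and Rbpj above the ligands. The interval of Notch1, from 0.088 to 0.34, is the only one of the 10 that leaves out 0, and the interval of Rbpj is the widest, from -0.41 to 0.32.

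To ask whether Notch1 moved apart from its paralogs, the log2 signal of each paralog was subtracted from that of Notch1 within the same rat, and the differences were compared between TBI and control rats with an exact two-sided permutation test of the absolute difference of group means over all 462 assignments of the rats, adjusted over the 3 comparisons. Notch1 rose relative to Notch4 by 0.23 (standard error 0.047), with all 6 TBI rats above all controls (exact permutation p = 0.0043, adjusted p = 0.013). Relative to Notch2 it rose by 0.17 (standard error 0.050), again with all 6 TBI rats above all controls (exact permutation p = 0.013, adjusted p = 0.019). Both separations were narrow. The lowest TBI and highest control values were 1.34 and 1.324 for Notch1 minus Notch4, and 0.052 and 0.043 for Notch1 minus Notch2. Relative to Notch3, Notch1 rose by 0.15 (standard error 0.053), with 3 of 6 TBI rats above all controls (exact permutation p = 0.022, adjusted p = 0.022). These differences come from pairs of probe sets on one array and show unequal change, not that a paralog did not change. The study had already singled out Notch1 from the upregulated predicted microRNA targets in these rats, so the tests are not independent of that choice. It also used network and gene set analyses, and reported a rise of Notch1 by RT-qPCR in the same rats. In other rats it reported a trend towards more cells stained for cleaved NOTCH1. From another dataset it reported higher Notch1 expression in the perilesional cortex. The difference from Notch3 lost the threshold without control rat 2, 3 or 4 (adjusted p = 0.057, 0.052 and 0.052, exact permutation) and without the 3 rats that stood apart (adjusted p = 0.057), and the difference from Notch2 reached an adjusted p of 0.050 without control rat 4. Without the 3 rats that stood apart, the differences from Notch4 and Notch2 were 0.18 and 0.23, each with an adjusted p of 0.043 from the exact permutation test.

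**Figure D3:**
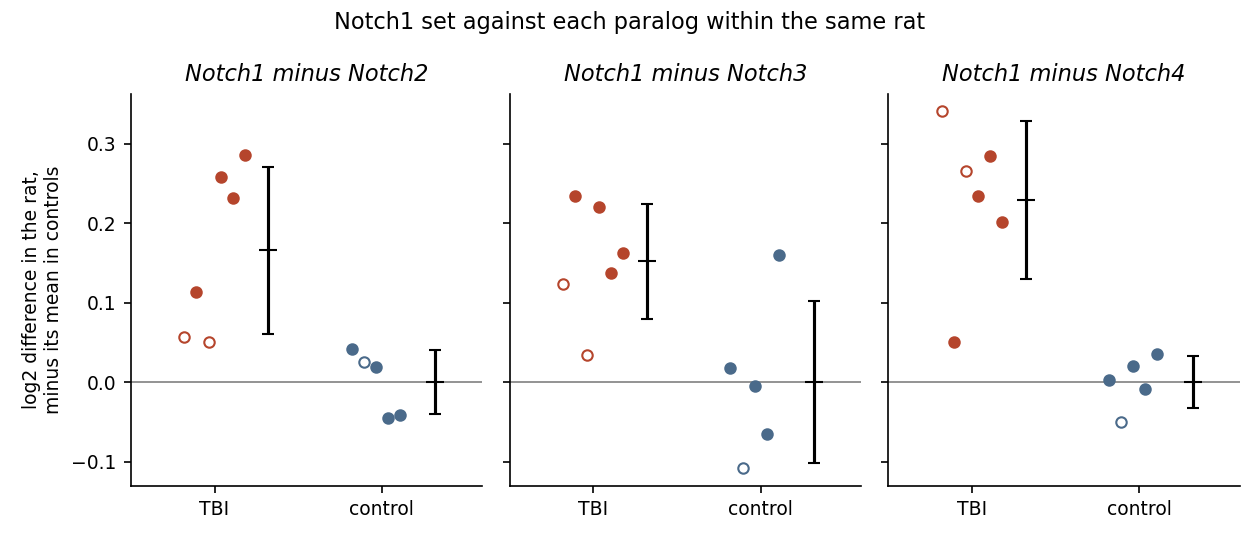
Log2 signal of Notch1 minus that of Notch2, Notch3 or Notch4 in the same rat, less the mean of that difference in the controls (y axis), with the 6 TBI rats left of the 5 controls. Points are rats, open points are the 3 rats that stood apart, and bars give the mean and SD. All TBI rats lie above all controls for Notch2 and Notch4, by a narrow margin in both, and 3 of 6 do for Notch3.

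Rbpj, the DNA-binding protein that all 4 receptors share, overlapped between the groups and varied widely between rats. Its log2 signal ranged over 4.56, 4.67 and 5.24 (lowest, median and highest) in TBI rats, against 4.53, 5.34, 4.81, 4.86 and 4.79 in controls 1 to 5. The high values were those of TBI rats 1 and 3 and control rat 2, at 5.23 to 5.34, and the other 8 rats lay between 4.53 and 4.86 without overlap. The residual SD of Rbpj was 0.31, larger than that of 96.9% of the probe sets tested. Between the groups Rbpj had a log2 fold change of -0.044 (95% interval -0.41 to 0.32, unadjusted p = 0.80 from limma), an interval that spans 0.754-fold to 1.25-fold. Without the 3 rats it was -0.13 (unadjusted p = 0.092 from limma). These rats were set apart by a component computed from the same arrays, Rbpj included, so their Rbpj values are a description. Jag2 and Notch4 had the opposite arrangement in the same 3 rats. Jag2 lay between 6.65 and 6.79 in them and between 6.85 and 6.98 in the other 8 rats, and Notch4 between 5.66 and 5.84 against 5.88 to 6.08.

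Of the ligands, Jag1 had the largest difference. Jag1, a Jagged ligand of astrocytes, endothelium and smooth muscle, ranged over 5.78, 5.87 and 6.14 in TBI rats, against 5.71, 5.77, 5.87, 5.82 and 5.71 in controls 1 to 5. TBI rats 2, 4, 5 and 6 lay above all controls, the highest being TBI rat 6. TBI rat 2 did so only just, at 5.868 against 5.866 in control rat 3. The log2 fold change of Jag1 was 0.12 (95% interval -0.0096 to 0.26, unadjusted p = 0.066, adjusted p = 0.76 from limma). The exact two-sided permutation test gave Jag1 an unadjusted p of 0.0498. That test gave Notch1 an unadjusted p of 0.013, and every other Notch gene one between 0.23 and 0.86. Without TBI rat 6 the log2 fold change of Jag1 was 0.076, the lowest with any 1 rat left out, and the highest was 0.15. In limma Jag1 had an unadjusted p under 0.05 in 3 of the 22 alternatives, and its lowest adjusted p in any of them was 0.21. Jag2, the other Jagged ligand, ranged over 6.65, 6.89 and 6.98 in TBI rats, against 6.96, 6.72, 6.85, 6.91 and 6.98 in controls 1 to 5. The groups covered nearly the same range, and the log2 fold change of Jag2 was -0.022 (95% interval -0.17 to 0.12, unadjusted p = 0.75 from limma).

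The Delta-like ligands differed by less than their spread. Dll1, which signals from committed progenitors to stem cells, ranged over 5.45, 5.63 and 5.76 in TBI rats, against 5.55, 5.40, 5.78, 5.44 and 5.58 in controls 1 to 5, so every TBI rat lay within the range of the controls. Its log2 fold change was 0.061 (95% interval -0.096 to 0.22, unadjusted p = 0.41 from limma). Dll4, the ligand of sprouting endothelium, ranged over 4.75, 4.89 and 5.04 in TBI rats, against 5.07, 4.85, 4.77, 4.88 and 4.64 in controls 1 to 5. Here too the TBI values lay inside those of the controls, with a log2 fold change of 0.052 (95% interval -0.11 to 0.21, unadjusted p = 0.50 from limma). Dll3, a divergent ligand known for inhibiting Notch within the cell that makes it, lay low on the array, with a mean above that of only 11.3% of the probe sets tested. It ranged over 3.69, 3.75 and 3.81 in TBI rats, against 3.87, 3.61, 3.73, 3.75 and 3.87 in controls 1 to 5, above the floor set for low values in every rat. Its log2 fold change was -0.016 (95% interval -0.12 to 0.092, unadjusted p = 0.75 from limma).

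Around these 10 genes, 49 of 57 listed genes that process, modify or act with the Notch receptors were measured, and 0 of them passed after adjustment in limma. Unadjusted, 4 reached a p under 0.05 with a positive and 1 with a negative log2 fold change, and 4.96% and 1.87% of all probe sets did. With each array centred on its median these were 1 and 2 genes. The median of the 49 was 0.037 on the log2 scale. Among 7 nuclear coactivators 2 were higher, Maml3, a Mastermind protein of the Notch complex (log2 fold change 0.14, unadjusted p = 0.030 from limma), and Snw1, a cofactor that also belongs to the spliceosome (0.16, unadjusted p = 0.045), and the median of these 7 was 0.094. Among 6 corepressors 1 was higher, the histone deacetylase Hdac1. In the 6 TBI rats Hdac1 averaged 6.61 ± 0.018 (log2 signal, SD), against 6.52 ± 0.049 in the 5 controls, with all TBI rats above all controls (log2 fold change 0.090, unadjusted p = 0.017, adjusted p = 0.57 from limma). Groups were free of overlap, in either direction, in 1.04% of all probe sets. Among 8 non-canonical ligands 1 was higher, Mfap2, a protein of elastic microfibrils, by 0.18 on the log2 scale (unadjusted p = 0.023 from limma).

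Apart from the receptors and ligands, the genes tested for steps before the nucleus had no unadjusted p under 0.05 in limma. These were 7 genes of receptor cleavage, among them Adam10, which makes the first cut (log2 fold change 0.040), and Ncstn and Aph1a, subunits of gamma-secretase (-0.057 and 0.040), 4 genes that add sugars to the receptors, among them Lfng (0.16, unadjusted p = 0.11), and 11 genes of endocytosis and ubiquitination, among them Mib1, which activates ligands (0.051), and Numb, an inhibitor of the receptors (-0.012). Of the 6 Hes, Hey and Nrarp genes, the direct targets, 1 was lower at an unadjusted p under 0.05, the feedback inhibitor Nrarp (log2 fold change -0.18, unadjusted p = 0.032 from limma), and none was higher. The plot of these lists sets their genes beside the median of all probe sets.

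**Figure D4:**
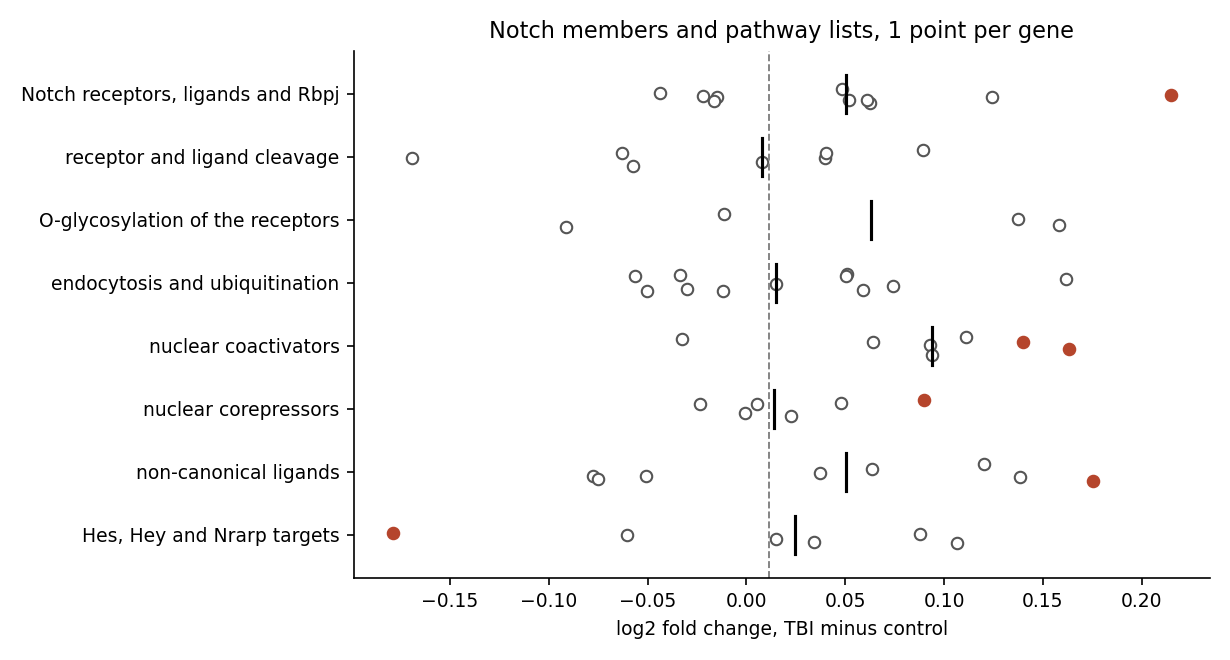
Log2 fold change, TBI minus control (x axis), of the 10 Notch genes and of the genes of 7 pathway lists, 1 point per gene. Filled points have an unadjusted p under 0.05 in limma, short black bars are list medians and the dashed line is the median of all probe sets (0.011). Notch1 lies farthest to the right, at 0.21, and Nrarp farthest to the left, at -0.18.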

How the data were processed

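The authors deposited log2 signals for 29214 probe sets, which they obtained with RMA (Robust Multi-array Average) in oligo, version 1.30.0 in the submitters' processing notes and an earlier one in the methods. RMA subtracts background, forces the arrays onto one distribution and combines the probes of a probe set, which compresses differences of low signals. The methods set the background at the median of the antigenomic probes, which were not used here. In its place the floor was 3.06, the lowest value in the 1241 rows read of the study's table of array results, where 6 of 13651 values equal it within 1e-06. It may differ from the authors' background. Values below it were raised to it, 2136 probe sets that stood at this floor on more than 5 arrays were dropped, and probe sets of 1 gene symbol were kept (18644, with 962 of several symbols and 9608 not named). At the 17905 probe sets left, the groups were compared with limma 3.58.1 in R 4.3.3 in place of the one-way analysis of variance, with Benjamini-Hochberg adjustment and a threshold of 0.05, and intervals are at 95%. Single values were compared with exact permutation tests over rats. The smallest p these allow is 0.00216. Genes named were the 10 Notch genes and the 5 genes most like Notch1. Pathway genes named were up to 4 per list with the lowest p among those with an unadjusted p under 0.05. In the marker lists shown, genes with an adjusted p under 0.05 or the lowest p of their list were named. Marker lists of CA pyramidal neurons, oligodendrocytes, their progenitors, fibroblasts and meninges, and choroid plexus were also tested, and their genes are not named. None of these lists had a gene with an unadjusted p under 0.05 in limma. All 6 fibroblast and meningeal markers were positive (median 0.095). CA pyramidal markers (3 positive, 2 negative) averaged 6.995 to 7.46 in TBI rats and 6.983 to 7.525 in controls. Other list genes given as examples (Adam10, Ncstn, Aph1a, Lfng, Mib1, Numb, Cldn5, Prox1, Tdo2, Sst, Aif1, Dcx and Sox11) were chosen after their values were seen. Where a gene has several probe sets, the one of highest mean was used. The genes and lists were chosen with earlier results of these data known. Of the listed pathway genes, 6 have no named probe set and 2 share theirs with other genes. In data simulated for this comparison over the 17905 probe sets, 67, 67 and 66 were given changes of 0.25, 0.5 and 1 on the log2 scale. Of these limma recovered 37.3%, 88.1% and 100%. The simulated data had 159 calls, 9 of them unchanged probe sets, against 27 calls in the real data. Adjustment is less strict where more probe sets change, so these shares may be too high for the real comparison. The number of arrays limits the precision. Alternatives were the floor and filter, the scaling, the variance model, the test, weights per array, a block for replicate number, the probe sets kept or averaged, and leaving out rats. Promoters and motifs were read with pandas 2.3.3 in Python 3.11.15, and plots were drawn with matplotlib 3.10.9.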

Additional observations from a re-analysis of the deposited data

Results flagged for a closer look

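In 20 sets of values, those of the 10 Notch genes in the TBI and in the control rats, 1 held a rat far from the rest of its group. The Jag1 signal of TBI rat 6 was 6.14 on the log2 scale, the nearest of the other TBI rats was at 5.89 and the lowest at 5.78. Such a gap arises by chance in about 1 of 20 sets. Without TBI rat 6 the log2 fold change of Jag1 was 0.076, against 0.12 with it.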

How the results depend on the processing

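Notch1 kept a positive log2 fold change and an unadjusted p under 0.05 in limma in all 22 alternatives, and its adjusted p passed 0.05 in 2 of them, with array weights (0.22) and without control rat 2 and TBI rats 1 and 3 (0.245). Both settings were set by variation within groups on the same arrays, so neither is independent support. With any 1 rat left out the log2 fold change of Notch1 lay between 0.18 and 0.24 and its adjusted p between 0.18 and 0.67. Notch2, Notch3, Dll1, Dll4 and Jag1 kept their direction in all alternatives that gave a value, but with 1 rat left out they ranged over 0.010 to 0.067, 0.023 to 0.087, 0.023 to 0.12, 0.0012 to 0.11 and 0.076 to 0.15, in that order. Genes near 0 changed sign: Notch4 and Jag2 were at 0.010 and 0.0014 with array weights and at 0.064 and 0.0075 without those 3 rats, and Rbpj was at 0.0089 with the replicate block. With 1 rat left out, Notch4 lay between -0.050 and 0.033, Dll3 between -0.055 and 0.010, Jag2 between -0.063 and 0.021 and Rbpj between -0.13 and 0.076. Notch1 minus Notch2 lay between 0.14 and 0.19 and Notch1 minus Notch3 between 0.13 and 0.19 with 1 rat left out, and the difference from Notch3 was 0.16 without the 3 rats. Probe sets called over the array numbered 7 with centred arrays, 7 with a second quantile normalization, 8 with the analysis of variance, 310 with array weights, 3 with the replicate block and 271 without the 3 rats; with 1 rat left out they numbered 5 to 34, and 5 to 11 without any 1 control or TBI rat 4, 5 or 6. Higher and lower probe sets at an unadjusted p under 0.05 numbered 511 and 722 with centred arrays, 1866 and 1371 with array weights, 515 and 147 with the block, 1748 and 1859 without the 3 rats, and 652 to 1521 and 236 to 669 with 1 rat left out. Pathway genes higher at that p were 1 with centred arrays, 9 with array weights, 1 with the block and 1 to 7 with 1 rat left out, and those lower were 2 with centred arrays, 0 with the second quantile normalization, 3 without the 3 rats and 0 to 1 with 1 rat left out. The cause of these differences was not tested. The replicate numbers did not pair the rats: deviations of same-numbered rats from their group means correlated at -0.66 to 0.11, and 0 of 10 rats correlated best with its own number. With the replicate block Notch1 had a log2 fold change of 0.20 and an adjusted p of 0.999. Dll3, Dll4 and Rbpj have mean signals under 5 and have no value with the filter at 5.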
